A study of Drosophila melanogaster with 3 samples.

Results

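The 31 genes described here act in the germline of Drosophila melanogaster or in its piRNA pathway. They were taken by name and not by measured values, though with earlier results of these data known. Sorted by known role, 8 were genes of the germ plasm and of localised maternal RNA and 2 of germline stem cell differentiation. The rest were 12 genes of piRNA biogenesis and 9 nuclear piRNA genes. The annotation held 13944 protein-coding genes. Chromatin immunoprecipitation followed by sequencing (ChIP-seq) had mapped where CG14710, a zinc finger protein, lay on the genome of whole embryos aged 0 to 14 hours, with males and females pooled. All samples came from a transgenic line in which CG14710 carried GFP at its C-terminus, and the chromatin was pulled down with an antibody against GFP. The study had 1 group of 3 biological replicates, so no test between conditions could be made, and counts are set beside the same counts over all protein-coding genes. The deposited lists held 30000 peaks for each replicate and for the pooled data, and 9194 peaks in the list that the authors filtered by irreproducible discovery rate (IDR). The sources used here do not give read depth. Embryos lacking the tag were not analysed here, so the signal that the same promoters give without GFP-tagged CG14710 was not tested.

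Germ plasm is the cytoplasm at the posterior pole of the egg that carries maternal RNAs and proteins and instructs the cells that form there to become germ cells. Small RNAs called piRNAs guide PIWI proteins to transposon transcripts, in the cytoplasm through slicing in a perinuclear structure called nuage, and in the nucleus through silencing of transcription. Most of these genes are known for their expression in the ovary and for products that the mother loads into the egg. Pole cells are a small part of a whole embryo, so the lists describe chromatin of all the embryo's cells.

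A gene is called bound below where the summit of an IDR peak lay within 500 bp of one of its annotated transcription start sites. By that rule 17 of the 31 genes (54.8%) were bound, beside 42.6% of all protein-coding genes. The bound genes were vas, nos, bcd, gcl and pum, then bgcn, then tej, spn-E, squ, zuc, papi and vret, then cuff, piwi, Panx, arx and nxf2. The 14 others were osk, pgc and tud, then bam, then aub, AGO3, krimp, qin, armi and shu, then rhi, del, moon and mael. The split ran through every role, with 5 of 8 germ plasm genes, 1 of 2 stem cell genes, 6 of 12 biogenesis genes and 5 of 9 nuclear genes bound. The shares of the roles, from 50% to 62.5%, rest on few genes each, and no test of their difference was made.

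**Figure D1:**
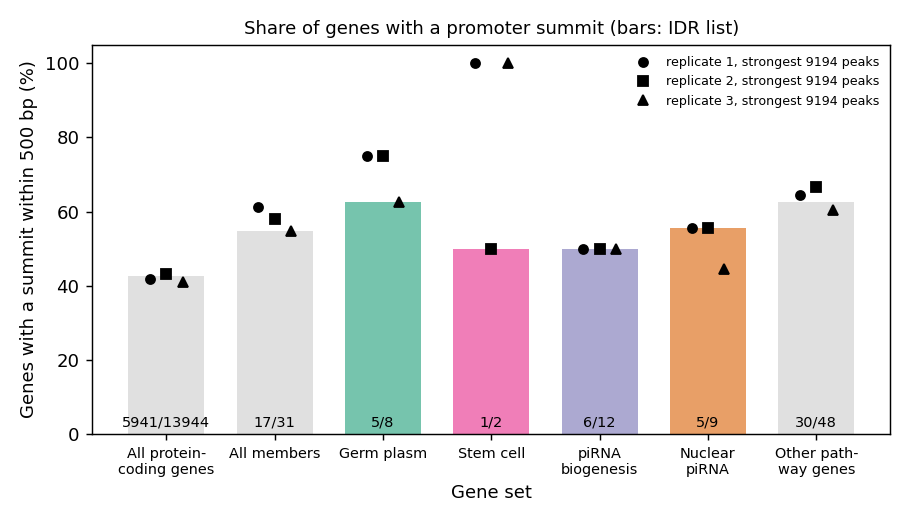
Share of genes with a peak summit within 500 bp of a start site (y axis, percent) for each gene set (x axis). Bars show the IDR list with counts printed in them, and points show the strongest 9194 peaks of each replicate; all 31 members stood at 54.8% in the IDR list and all protein-coding genes at 42.6%.

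The DNA under the summits of 7 bound genes is given here, to show the strongest site (vret), sites with motifs (vret, arx and squ) and sites with none (papi, spn-E, piwi and vas). Each line holds the 101 bases centred on the highest IDR summit of the promoter, on the strand of the gene, from the RefSeq genome of the build of the files (dm6). Capitals mark matches, on either strand, to any of the motifs searched: TATCGATA of DREF, CGATA of BEAF-32, GGTCACACT of M1BP, GGTATTTT (core promoter motif 6), CAGGGCTG of ZIPIC, GAGAGAG of GAF and CAGGTAG of Zelda. CGATA lies inside TATCGATA, so those matches overlap. The windows are chr3R:22745562-22745662 for vret, chr3L:18901537-18901637 for arx, chr2L:16679986-16680086 for squ, chr2L:2221760-2221860 for papi, chr3R:15837198-15837298 for spn-E, chr2L:10987548-10987648 for piwi and chr2L:15061509-15061609 for vas.
vret: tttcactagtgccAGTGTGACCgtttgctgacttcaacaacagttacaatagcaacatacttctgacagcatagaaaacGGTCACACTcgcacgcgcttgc
arx: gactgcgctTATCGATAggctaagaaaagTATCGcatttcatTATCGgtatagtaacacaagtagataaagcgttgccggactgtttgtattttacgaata
squ: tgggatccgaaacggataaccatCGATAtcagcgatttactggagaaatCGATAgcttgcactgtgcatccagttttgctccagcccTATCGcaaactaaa
papi: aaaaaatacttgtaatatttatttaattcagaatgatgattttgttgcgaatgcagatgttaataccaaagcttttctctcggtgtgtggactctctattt
spn-E: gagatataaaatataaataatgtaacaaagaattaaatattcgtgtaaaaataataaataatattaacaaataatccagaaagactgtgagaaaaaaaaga
piwi: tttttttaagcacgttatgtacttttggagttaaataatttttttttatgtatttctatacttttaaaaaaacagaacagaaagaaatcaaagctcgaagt
vas: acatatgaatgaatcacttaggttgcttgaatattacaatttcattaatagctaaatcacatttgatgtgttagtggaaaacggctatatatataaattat

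The vret window held a pair of M1BP sequences in opposite orientation at equal distance from the summit, 29 to 37 bases to each side. M1BP is a zinc finger protein of promoters of constitutively active genes. The arx window held the sequence of DREF, a factor known for genes of DNA replication and growth, 34 to 41 bases upstream of the summit and further CGATA matches, and the squ window held CGATA matches only. The windows of papi, spn-E, piwi and vas held none of the 7 motifs, which says only that these letters are not in these windows.

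Over the 17 bound genes, the DREF sequence lay within 50 bp of the highest summit of 3 (tej, Panx and arx; 17.6%), beside 7.51% of the 5113 IDR summits at promoters of protein-coding genes. CGATA was at 9 of 17 (52.9%) beside 30.3%, and the M1BP sequence at 1 of 17, vret, beside 4.11%. The 5113 summits include lesser ones, while each member counted with its highest summit only, so these shares are of unlike sets. Motif 6, ZIPIC, GAF and Zelda sequences were at none of the highest summits, and at 3.93%, 1.82%, 0.821% and 0.332% of all promoter summits. Motif 6 lay at a lesser summit of piwi, and GAF and Zelda sequences at lesser summits of papi.

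The same search from 250 bases before to 50 after the outermost start site included the genes without a peak. The DREF sequence was in the promoters of 5 bound members (nos, tej, spn-E, Panx and arx) and of bam and qin among the 14 others, beside 18.0% of all bound and 2.95% of all other protein-coding genes, and 9.37% of all promoters. The M1BP sequence was in 5 bound members (gcl, pum, zuc, vret and piwi) and in armi, beside 12.7% and 1.09%, and 6.05% of all. Motif 6 was in no bound member but in pgc, armi and rhi, while over all genes it was in 8.95% of bound and 2.54% of other promoters, and in 5.27% of all. CGATA was in 10 of the 17 bound and 9 of the 14 other members, beside 60.7% and 37.4%, and in 47.3% of all. The ZIPIC sequence was in rhi (2.22% of all promoters), GAF in mael (5.86%) and Zelda in papi (1.64%).

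Among germ plasm genes the highest signal was at gcl, whose product is needed for pole cells to form. Signal is the authors' peak caller's value for a peak and has no stated scale, so it is used to rank peaks within a list. At gcl it was 315, 282 and 619 in replicates 1, 2 and 3, ranks 2388, 1545 and 968 of 30000, and 1233 (rank 1315) in the IDR list, with the summit 160 bp upstream. The gene encoding Nanos, nos, a translational repressor of the posterior and of germ cells, had signals of 346, 211 and 446 and an IDR rank of 1950. The RNA-binding partner of Nanos, pum, had 434, 237 and 339 and an IDR rank of 2055. The ranks of these 3 genes were between 968 and 2654 in every replicate.

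The gene bcd, an anterior determinant whose mRNA is localised in the egg and which is no component of germ plasm, had signals of 273, 160 and 255 and an IDR rank of 3582, with an intergenic summit 168 bp upstream. For vas, which encodes an RNA helicase of germ plasm and nuage, the signals were 165, 99.6 and 354. Its ranks of 5754, 6859 and 2475 put it higher in replicate 3 than in the others. The start site of vas is also that of solo, a gene of sister chromatid cohesion in meiosis, so the peak cannot be given to either.

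No IDR summit lay at osk, the organiser of germ plasm, nor at tud, which encodes its tudor domain scaffold, nor at pgc, which keeps transcription silent in pole cells. For osk only replicate 3 had a summit in the window, at rank 17060, with a signal of 43.4. For tud the summit was at rank 7137 in replicate 1 and 3084 in replicate 2, about 50 bp upstream, and replicate 3 and the pooled list had none in the window. For pgc the ranks were 12265 and 15204 in replicates 1 and 2, again with none in replicate 3. The nearest IDR summit was 2173 bp from osk, 12488 bp from tud and 12508 bp from pgc.

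Of the pair of stem cell genes, bgcn was bound and bam lay just outside the rule. Bam drives the daughter of a germline stem cell to differentiate, with Bgcn as its partner. At bgcn the signals were 313, 217 and 536, and the IDR peak ranked 1762 with its summit 170 bp inside the gene, in the non-coding part of an exon. At bam the nearest IDR summit was 507 bp from the start site, 7 bp past the window, and the windows of replicates 1 and 3 held summits of rank 4084 and 6623 upstream, near the edge of the window.

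In piRNA biogenesis the PIWI proteins of the cytoplasm had no promoter peak. For aub and AGO3, which slice transposon transcripts in the ping-pong cycle, no summit lay in the window in the IDR list, the pooled list or any replicate list. Of all 13944 protein-coding genes, 5138 had no summit in the window in any replicate list. The nearest IDR summit was 2651 bp from aub and 404022 bp from AGO3, which spans 3L from 23554593 to 23689640. The nuclear PIWI gene piwi lies 14056 bp from aub, start site to start site, and was bound.

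The highest member of all was vret, which encodes a tudor domain protein needed for piRNA production. Its signals were 687, 526 and 766, at ranks 536, 391 and 648, and its IDR peak (3R, 22745378 to 22745894) had a signal of 1979 and rank 513. The summit lay 31 bp upstream, between vret and the divergent start site of HP1c, an HP1 family chromatin gene, 39 bp away. HP1c had the nearer start site of the pair, so the peak can be assigned to neither alone.

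At papi, which encodes a tudor protein of the mitochondrial surface that acts in trimming, the signals were 589, 319 and 619 and the IDR rank was 902. Its highest summit lay in an intron, 279 bp upstream of the nearest of 4 start sites, and no other gene's start site was within 1000 bp. The nuage helicase gene spn-E had signals of 367, 248 and 457 and an IDR rank of 1703, at a promoter that diverges from ND-23, a subunit gene of respiratory complex I, 302 bp away. For tej, which encodes a tudor domain protein of nuage, the signals were 320, 255 and 210 (IDR rank 2844). Its summit, 487 bp upstream, was the bound member's summit nearest to the edge of the window.

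Lower in the list were squ, a nuage protein gene whose start site coincides with one of the checkpoint kinase gene grp, and zuc, which encodes the endonuclease of phased piRNA production. The squ signals were 144.4, 144.7 and 204.6, at ranks 6675, 4537 and 4954, with an IDR rank of 6898. The zuc signals were 132, 80.2 and 112 (IDR rank 7885), with the start site of the augmin subunit gene dgt2 54 bp away. In every replicate both ranked lower than vret, papi and spn-E did.

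For the other biogenesis genes the replicate lists held weak summits or none. The RNA helicase gene armi had summits in all 3 replicates, at ranks 20714, 19176 and 25114, and a nearest IDR summit at 580 bp. The co-chaperone gene shu, whose product helps to load PIWI proteins, had ranks of 10468 and 14416 in replicates 1 and 2 only. For krimp and qin, tudor domain genes of nuage, only replicate 3 had a summit, at ranks 11121 and 16217. The largest of these signals was 88.9, at shu in replicate 1.

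Of the 4 genes for transcription of piRNA clusters, cuff alone was bound, and of the 5 genes for silencing at target loci 4 were. Over all protein-coding genes 42.6% were bound. The difference between these groups of few genes was not tested. At cuff, whose product protects cluster transcripts, the signals were 699, 621 and 552, at ranks 521, 286 and 1189, and the IDR rank was 674. Its peak lay 357 bp upstream, nearer to the divergent start site of CG13185 than to that of cuff. The HP1 paralogue gene rhi had only a replicate 3 summit at rank 15348 and a pooled one at rank 20944, and del, which links Rhino and Cutoff, only a replicate 1 summit at rank 25780. At moon, the TFIIA-L paralogue gene of cluster transcription, no list had a summit in the window.

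Among silencing genes the order of IDR rank was piwi (3777), arx (4873), Panx (5350) and nxf2 (8076). At piwi the signals were 196, 135 and 320, at ranks 4708, 4941 and 2852. In replicates 1 and 2 the higher of its summits lay 345 and 331 bp upstream, and in replicate 3 and the IDR list 174 and 178 bp upstream. At arx, which encodes the Piwi partner Asterix, the signals were 206, 137 and 162. For Panx and nxf2, whose products form a silencing complex with Piwi, they were 172, 127 and 206 and then 123, 92.8 and 93.9. The rank of nxf2 in replicate 3, 9840, was past the 9194 strongest peaks. The gene mael, which acts in transcriptional silencing downstream of Piwi, had summits in every replicate at ranks 13831, 12840 and 10430 but none in the IDR list.

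**Figure D2:**
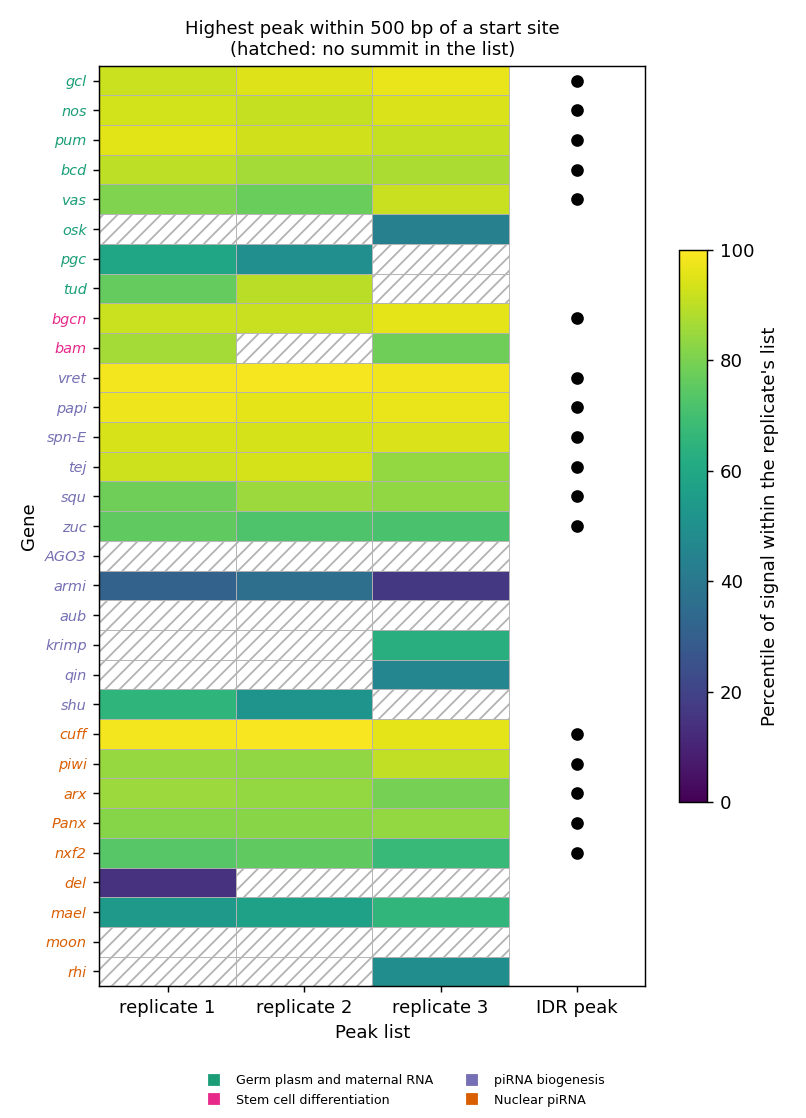
Percentile of signal (colour, 0 to 100) of the highest peak within 500 bp of a start site, for each gene (rows) in each replicate's list of 30000 peaks (columns); hatched cells had no summit and black dots mark an IDR peak. The 17 bound genes had a summit in every replicate, between percentiles 67.2 and 99.1, and aub, AGO3 and moon had none in any. Over all protein-coding genes 5138 of 13944 had none in any.

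With as many strongest peaks as the IDR list holds, 19, 18 and 17 members were bound in replicates 1, 2 and 3, a mean of 58.1% ± 3.23 (SD, n = 3), beside 42.0% ± 1.18 of all protein-coding genes (41.9%, 43.3% and 41.0% in turn). Of the 31 genes, 16 were bound in all 3 replicates by this measure and 12 in none, and the remaining tud, bam and nxf2 in 2 of 3. Over all protein-coding genes 35.9% were bound in all 3. In the whole lists of 30000 peaks, 24, 22 and 24 members had a summit in the window, beside 55.4%, 55.3% and 55.0% of all protein-coding genes.

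Genes at the margin of the IDR list differed between replicates. Of the 14 genes without an IDR summit, 11 had a summit in at least 1 whole replicate list, as did 35.8% of the 8003 protein-coding genes without an IDR summit. Both armi and mael had one in all 3 lists, osk, krimp, qin and rhi in replicate 3 only, and pgc, tud and shu in replicates 1 and 2 but not 3. The pooled list added armi, shu, rhi and mael, at ranks from 12038 to 20944, for 21 of 31 genes beside 55.1% of all protein-coding genes. Inside the IDR list, whose lowest signal was 263, the weakest members were nxf2 (311) and zuc (318), and of the 4 members with a pooled but no IDR summit in the window mael had the highest pooled signal, 181. In single replicates bam (219 in replicate 1) and tud (192 in replicate 2) had higher signals in the window than mael (62.5, 48.3 and 86.9).

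Peak strength of the bound members spanned most of the IDR list. Their percentiles in it ran from 12.2 to 94.4 with a median of 69.1, and the median over all 5941 bound protein-coding genes was 66.6. The medians within the replicate lists were 91.9, 91.2 and 91.3 for the bound members and 88.8, 90.3 and 89.6 for all bound genes. The highest-ranked member, vret, was at rank 513, and 3 members (vret, cuff and papi) were above the 90th percentile, while 15.6% of all bound genes were. By role the median IDR percentile was 77.7 for germ plasm (5 genes), 75.3 for biogenesis (6 genes) and 47.0 for nuclear genes (5 genes). The ranges overlapped, from 55.9 to 85.7, from 14.2 to 94.4 and from 12.2 to 92.7 in turn. No test of the difference was made. With the summit nearest to a start site in place of the highest one, the median of all bound members was 58.9. The median by nearest summit was not taken over all bound genes.

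**Figure D3:**
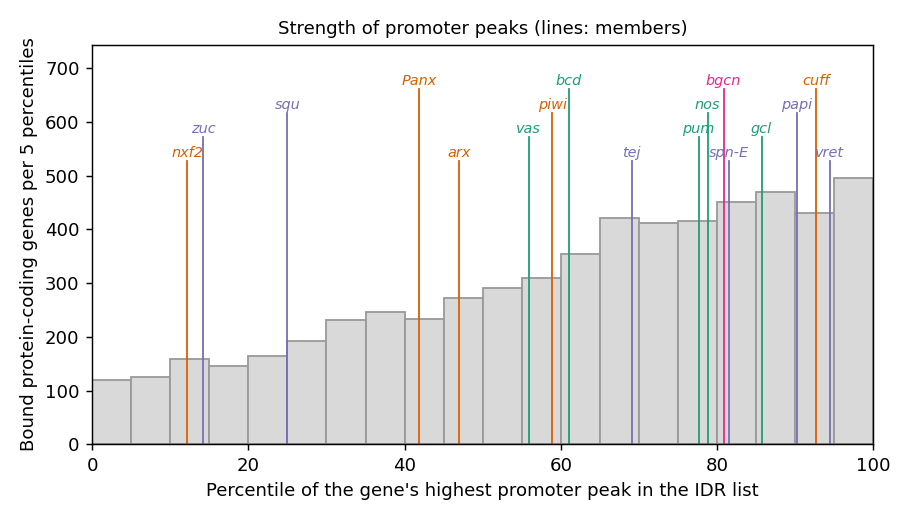
Percentile in the IDR list of the highest promoter peak (x axis) for the 5941 bound protein-coding genes, as counts per 5 percentiles (grey bars, y axis), with a coloured line for each of the 17 bound members, coloured by role (green germ plasm, pink stem cell, purple biogenesis, orange nuclear). The members spread from nxf2 at 12.2 to vret at 94.4.

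Summits of the 17 bound genes lay from 487 bp upstream to 170 bp downstream of the nearest start site of the gene, with a median 97 bp upstream. The median was 109 bp upstream over all bound genes. For 8 of 17 the summit was within 100 bp, 47.1% beside 44.1% over all bound genes, and for 13 it was upstream, 76.5% beside 89.8%. The genes with a summit downstream were zuc, pum, nxf2 and bgcn, in the non-coding part of their own exon. At vret, gcl, spn-E and bcd the replicate summits lay within 50 bp of each other, while at pum and piwi different replicates had their highest peak at different summits of the promoter.

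**Figure D4:**
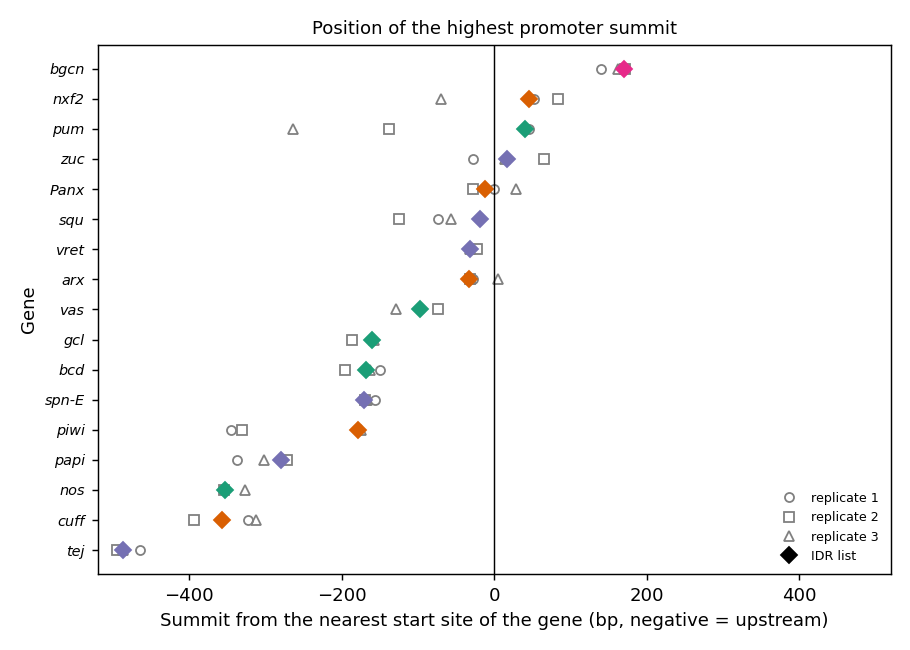
Position of the highest promoter summit relative to the nearest start site of the gene (x axis, bp, negative upstream) for the 17 bound genes (rows), in the IDR list (filled diamonds, coloured by role) and in each replicate (open symbols). The IDR summits run from 487 bp upstream at tej to 170 bp downstream at bgcn.

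Most of these peaks lay near start sites of more than 1 gene, as did most peaks over all bound genes. At 11 of the 17 bound genes (64.7%) a start site of another gene was also within 500 bp of the summit, beside 61.1% of all bound genes. The nearest neighbour was divergent for 9 of them, which were nos with CG11779, gcl with CG14767, spn-E with ND-23, zuc with dgt2, vret with HP1c, cuff with CG13185, piwi with CG12253, Panx with CG9485 and arx with CG6843. The other 2, vas with solo and squ with grp, share a start site on the same strand. The share with a divergent neighbour was not taken over all bound genes. For 5 genes (nos, spn-E, vret, cuff and arx) the highest summit was nearer to the other gene's start site. The gene's own start site was nearest for 70.6% of the bound members, beside 70.7% of all bound genes. When a gene was counted only if a summit had its own start site as the nearest, 14 of 31 remained, beside 32.3% of all protein-coding genes, and arx, nos and vret were the genes lost. Ties counted as own, so vas remained although it shares its start site with solo.

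Bound genes without such a neighbour were found too. Among the 12 members with no other start site within 1000 bp, 5 were bound (bcd, pum, bgcn, tej and papi), beside 24.3% of the 7241 such protein-coding genes. Among the 19 with a neighbour, 12 were bound, or 63.2%, beside 62.4% of 6703. Neighbours within 1000 bp were present at 61.3% of the members and 48.1% of all protein-coding genes. Of the 7 nuclear genes with such a neighbour 5 were bound (71.4%, beside 62.4% of all genes with one), and rhi and mael were not. The nuclear genes without one, del and moon, were not bound. A gene with more start sites has more windows. Over all genes 36.8% with 1 start site and 67.6% with 4 were bound, and papi and pum had 4 each. A single start site was present at 21 of 31 members (67.7%), beside 73.5% of all protein-coding genes.

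**Figure D5:**
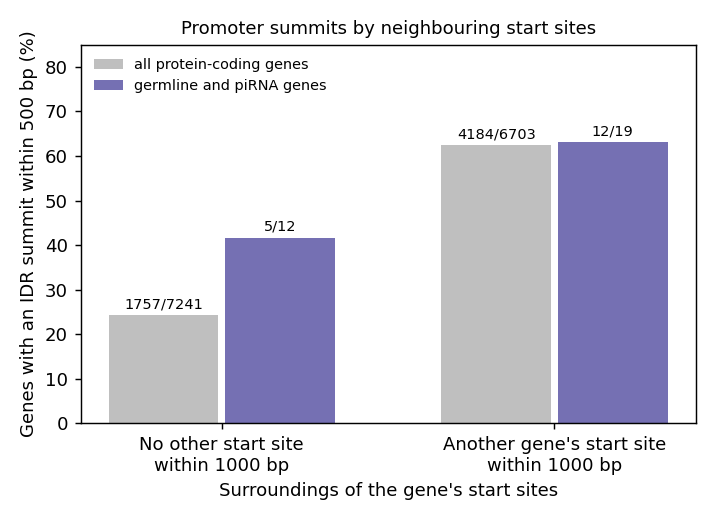
Share of genes with an IDR summit within 500 bp (y axis, percent) by whether another gene's start site lay within 1000 bp (x axis), for all protein-coding genes (grey) and the 31 germline and piRNA genes (purple), with counts above the bars. Members without a neighbour stood at 5 of 12 and all such genes at 24.3%, and with a neighbour at 12 of 19 and 62.4%.

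IDR summits inside the gene but outside the windows were present at 4 of 31 members (12.9%), beside 9.85% of all protein-coding genes. The pum gene, 171340 bp long, held 8 of them, vas 2, and piwi and bgcn 1 each. For the 14 unbound genes the nearest IDR summit was at a median of 3595 bp from a start site, with 3 of 14 (bam, armi and del) within 1000 bp, while over the 7980 unbound protein-coding genes with an IDR summit on their chromosome the median was 7681 bp and 6.19% were within 1000 bp.

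The count of bound members was also taken under other rules, each beside the share of all protein-coding genes. It was 16 of 31 with a window of 250 bp (37.3%), where tej was lost, and 20 with 1000 bp (46.1%), where bam, armi and del were added. It was 12 in the 4597 IDR peaks with the higher signal (29.0%), 14 where the peak interval had to cover a start site (34.7%) and 17 with the outermost start site alone (40.7%). In the higher-signal peaks squ, zuc, arx, Panx and nxf2 were lost, which left 2 of 9 nuclear genes. With IDR peaks kept only if they were among the strongest of the other replicates, it was 15, 16 and 16 without replicates 1, 2 and 3 (36.5%, 36.0% and 38.4%). The genes lost in these were nxf2 and squ.

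A second list of 48 genes of the same processes, chosen by known role with results of these data known, had 30 bound genes (62.5%) beside 42.6% of all genes. By role 7 of 11 germ plasm genes, 12 of 17 nuclear genes, 4 of 8 biogenesis genes and 7 of 12 stem cell genes were bound. The highest IDR signals were at swa, which encodes an RNA-binding protein that localises bcd mRNA (1921), at the translational regulator gene orb (1617), at Nxf3, whose product exports piRNA precursors (1344), and at smg, whose product represses maternal mRNAs (1115). Each of these 4 peaks lay nearer to the start site of another gene, divergent for swa, orb and smg, and the start site of Nxf3 coincides with one of ssp2. In the pooled list 43 of the 48 had a summit in the window, or 89.6% beside 55.1% of all protein-coding genes. In the 4597 IDR peaks with the higher signal 16 of the 48 were left, or 33.3% beside 29.0%.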

How the data were processed

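Peak lists of 3 ChIP-seq replicates of 1 group, a pooled list and an IDR list, all on dm6, were used as deposited by the authors. Per the deposited text files, each replicate list came from that replicate's alignments and 1 control file, and the IDR list from those lists together with the pooled one. The sources used here do not name the peak caller, the aligner or the IDR threshold. Each peak carries a signal that the authors deposited with no stated scale. The -log10 q value was deposited by the authors with a cap shared by all IDR peaks and was not used. Summit positions were deposited as offsets from the interval start.

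Summits were set against RefSeq start sites of the same assembly (17796 genes, 23623 start sites on the chromosome arms). Of the 31 names, 30 matched a RefSeq symbol and nos matched nanos by synonym. For each gene the highest peak with its summit within 500 bp of any start site was taken, and ranks and percentiles are within a list. Replicates were named by the labels' numbers. There was no contrast between conditions, so no test was run, and spreads are SDs over replicates. The members, gene lists and motifs were chosen with earlier results of these data known, and the promoter motif search was added after the data were seen. Every member is named. Values for each replicate are given for bound members, and of the further genes the 4 with the highest IDR signal are named. On simulated summits the rule found 100% of 200 planted genes. These summits were planted within 500 bp of lone start sites, so this checked the look-up only and not sensitivity on real peaks. Alternatives are in the closing section. Python 3.11.15, numpy 2.4.6 and matplotlib 3.10.9 were used.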

Additional observations from a re-analysis of the deposited data

How the results depend on the processing

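The share of all members bound stayed within 1.5 times its value of 54.8% under all 14 alternatives. The share of the further pathway genes (62.5%) did so under 13 of 14, 11 of these 14 added once the data had been seen, and was 33.3% in the IDR peaks with the higher signal. Both bands take in the 42.6% of all protein-coding genes, so staying within them does not set either list apart from all genes. Under the same 14 alternatives the share of all protein-coding genes ran from 24.3% to 55.1%. Shares of single roles moved by more where few genes were left. Stem cell genes were at 100% (2 of 2) with a window of 1000 bp and in the strongest peaks of replicate 1 or 3 alone (a choice made once the data had been seen). All protein-coding genes were at 46.1% with that window and at 41.9% and 41.0% in those peaks. Nuclear genes were at 22.2% in the IDR peaks with the higher signal, beside 29.0% of all protein-coding genes. Without neighbouring start sites nuclear genes were at 0 of 2 and germ plasm genes at 2 of 2, beside 24.3%. With pum counted as a stem cell gene the shares were 2 of 3 and 4 of 7, and with the piRNA cluster genes counted under biogenesis they were 7 of 16 and 4 of 5 for biogenesis and nuclear genes. Beside these counts stood 42.6% of all protein-coding genes. The median IDR percentile of bound members was 69.1 with the highest summit and 58.9 with the nearest. By this choice a gene's percentile can only stay or fall, and 7 of the 17 bound members had several IDR summits. Without 1 replicate the share of all members ran from 48.4% to 51.6%, and that of the further genes from 52.1% to 58.3%. For all protein-coding genes the share ran from 36.0% to 38.4%. Since each replicate shaped the IDR list, its influence is not wholly taken out. No paired analysis was possible because the study had 1 group. A peak missing from a list of fixed length is not among its strongest, which does not show that a site is unbound.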

Other observations

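The gene zpg, which encodes a germline gap junction protein and is 1 of the 48 further pathway genes, had a summit in replicate 3 alone. It ranked 3584 there, with a signal of 269 at 76 bp upstream, and the nearest IDR summit was 52938 bp away. It was singled out after its values were seen. Among the 31 members, tud had the reverse pattern, with summits at ranks 7137 and 3084 in replicates 1 and 2, none in replicate 3, and the nearest pooled summit 1455 bp away.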
